A study of Mus musculus with 9 samples.

Results

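The genes described here encode the nuclear subunits of the respiratory chain and the ATP synthase in mouse pancreatic stellate cells. They were chosen by symbol alone: protein-coding genes of the GENCODE M21 annotation whose symbols begin with Ndufa, Ndufb, Ndufc, Ndufs, Ndufv, Uqcr, Cox5, Cox6, Cox7, Cox8 or Atp5, together with Sdha to Sdhd, Cyc1 and Cycs and without Ndufa4l2. The rule found 92 of the 49315 gene identifiers counted. Of these, 84 were genes of subunits or of cytochrome c, and 8 were the assembly factor genes Ndufaf1 to Ndufaf8, which are treated apart. Complex I had 36 genes (7 core and 29 accessory), complex II 4, complex III 9, complex IV 17, complex V 17 and cytochrome c 1. Ndufa4, whose name places it in complex I, was counted with complex IV, where its protein is now placed.

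Poly-A RNA was sequenced in 9 libraries from 3 groups of 3. Stellate cells are fibroblast-like cells of the pancreas; these came from the strain C57BL6, had outgrown spontaneously into an immortal line, carried lentiviral Cas9 and 1 guide RNA, and were selected with puromycin as a mixed, uncloned population. HIF1a-ko hypoxia cells carried the guide HIF1a-sg2 and were kept at 0.5% oxygen for 48 h. R26 hypoxia cells carried the control guide R26-sg1 and were kept at 0.5% oxygen for 48 h. R26 normoxia cells carried R26-sg1 and were kept at 20% oxygen for 48 h. Cells with the Hif1a guide at 20% oxygen were not analysed here, so the effect of the guide is known in hypoxia alone. Nothing in the labels states that the libraries of a group were separate cultures, so p-values measure the spread between these libraries, which may be technical.

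Electrons from NADH enter the chain at complex I and those from succinate at complex II. Complex III passes them to the small carrier cytochrome c, complex IV gives them to oxygen, and complex V, the ATP synthase, uses the proton gradient that complexes I, III and IV build. A few subunits of complexes I, III, IV and V come from mitochondrial DNA, and the other subunits are imported from the cytosol, so that assembly needs dedicated factors. HIF-1, whose oxygen-regulated subunit is encoded by Hif1a, is known for shifting cells in low oxygen toward glycolysis and away from respiration.

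The libraries differed in depth. Totals ran from 43837809 to 107840223 counts, and 1 library in each group (HIF1a-ko hypoxia 1, R26 hypoxia 3 and R26 normoxia 3) held at least 88451200, against at most 51279104 in the other 6. These libraries are called deeper and shallower, a split made from the data. Levels are CPM, counts relative to the TMM-scaled library size. The targeted gene Hif1a had 123, 117 and 125 CPM in HIF1a-ko hypoxia 1 to 3, 178, 169 and 207 CPM in R26 hypoxia and 194, 192 and 225 CPM in R26 normoxia. It was lower in HIF1a-ko hypoxia than in R26 hypoxia (log2 fold change -0.60 ± 0.09, standard error (SE), adjusted p = 0.00032). The guide alters the gene's DNA, so an RNA level does not show how much protein was lost. Of the cell type markers, 9 fibroblast or stellate genes summed to 13110 to 13580 CPM in HIF1a-ko hypoxia, 19400 to 20960 CPM in R26 hypoxia and 16880 to 18430 CPM in R26 normoxia, with none at 0. An adipocyte list of 7 genes summed to 0.378 to 0.754 CPM in the 3 deeper libraries and reached 79.7, 122 and 112 CPM in the shallower libraries of HIF1a-ko hypoxia, R26 hypoxia and R26 normoxia. An epithelial list of 6 genes summed to 12.9, 42.5 and 14.1 CPM in the deeper libraries of HIF1a-ko hypoxia, R26 hypoxia and R26 normoxia and reached 98.7, 121 and 111 CPM in their shallower ones. A leukocyte list of 6 genes summed to 15.3, 7.998 and 12.5 CPM in the deeper libraries of HIF1a-ko hypoxia, R26 hypoxia and R26 normoxia and reached 90.9, 86.3 and 66 CPM in their shallower ones. No gene of these lists was at 0 throughout a group, and their part in the results below was not tested.

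Most subunit transcripts are short, and short transcripts were counted lower in the deeper libraries. Among the 81 subunit genes tested, all 44 with a median coding transcript under 800 bases had a lower mean CPM in the 3 deeper than in the 6 shallower libraries, with a median log2 difference of -0.66. The 37 longer genes had a median of -0.16, and 28 of them were below 0. Over the 81 genes, length and this difference had a Spearman rho of 0.74, which describes genes that share the same libraries. Among all protein-coding genes tested, 514 of 651 short ones were below 0 with a median of -0.34, and the 13568 longer ones had a median of 0.02. The counts over all subunits are given from 3 fits: with group as the only term, with depth class as a further term, and from the 6 shallower libraries alone. A value for which no fit is named is from the group-only fit.

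**Figure D1:**
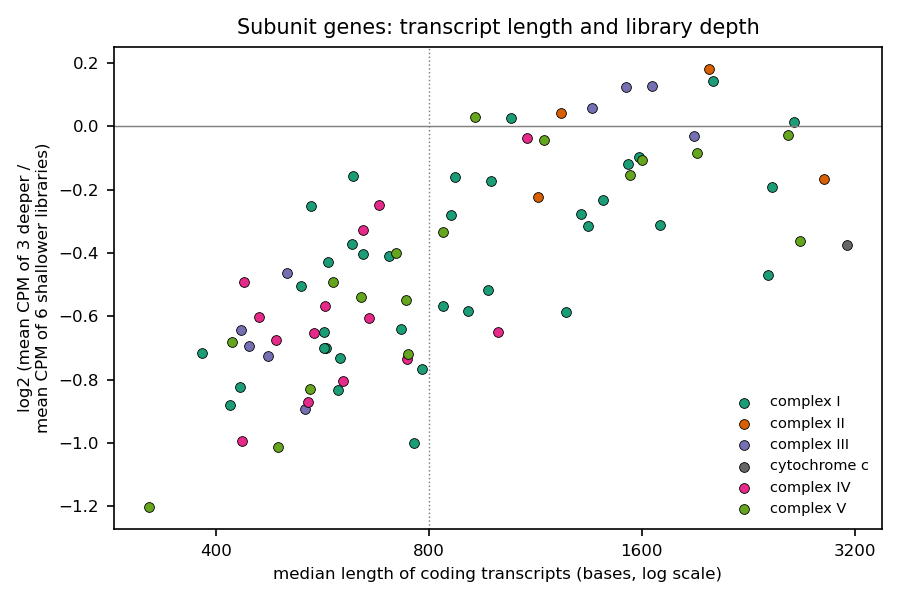
Median coding transcript length (bases, log scale) of the 81 subunit genes tested against the log2 ratio of their mean CPM in the 3 deeper over the 6 shallower libraries, coloured by complex; the dotted line marks 800 bases. All 44 genes to its left lie below 0 (median -0.66), while the 37 to its right have a median of -0.16.

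With HIF1a-sg2 in hypoxia, subunit genes of all 5 complexes and cytochrome c were higher than in R26 hypoxia. In the group-only fit, 37 of 81 passed as higher and 1, Ndufv3, as lower, where a gene passes at an adjusted p under 0.05; over all 18211 genes tested, 22.6% were higher and 24.1% lower. The median log2 fold change of the 81 genes was 0.53, against -0.01 for all genes, and 76 estimates were above 0. With depth class as a term 73 were higher and 2 lower (background 29.0% and 29.5%), with a median of 0.58. In the 6 shallower libraries alone 69 were higher and 4 lower (background 26.2% and 25.6%), with a median of 0.38. When 1 library was left out of the group-only fit the median was 0.33 to 0.67, lowest without R26 hypoxia 3, where 2 genes were lower. In bulk RNA, fewer cells with a transcript and less of it per cell cannot be told apart.

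In hypoxia with the control guide, few subunit genes passed against R26 normoxia, and those that did were lower. The group-only fit called 8 of 81 lower and 0 higher, with a background of 12.7% lower and 13.1% higher. At an unadjusted p under 0.05 it gave 13 lower and 0 higher, and DESeq2 gave 10 lower and 0 higher after adjustment. The share over all genes was not counted for the unadjusted p or for DESeq2, here or for the complexes below. The median log2 fold change was -0.22, against -0.01 for all genes, and 75 estimates were below 0. With depth class as a term 36 were lower and 1, Ndufv3, was higher (background 19.9% and 19.1%), and in the shallower libraries alone 28 were lower and 1 higher (background 14.6% and 15.5%). Same-numbered libraries of the R26 groups deviated together, though R26 hypoxia 1 correlated better with an R26 normoxia library of another number. The replicate number was also used as a block, and this fit called 43 lower and 2 higher (background 20.1% and 22.5%). Library 3 is the deeper one in both R26 groups, so the block holds depth as well. Its calls, here and for single genes below, are not independent of those of the depth term. The count fell to 4, 2 and 3 without R26 normoxia 1, R26 normoxia 2 or R26 hypoxia 2, and without R26 hypoxia 3 the median moved to -0.001. It was -0.11 without R26 normoxia 2 and -0.34 without R26 normoxia 3 or R26 hypoxia 1.

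Set against R26 normoxia, HIF1a-ko hypoxia had a share of subunit genes called higher that was close to the share over all genes in the group-only fit, and more were called in the other fits. The group-only fit called 16 of 81 higher and 0 lower (background 19.9% and 22.1%), with a median log2 fold change of 0.33. At an unadjusted p under 0.05 it gave 25 higher and 0 lower, and DESeq2 gave 24 higher and 0 lower. No share over all genes was counted beside either. In the fit with the depth term 61 were higher and 2 were lower (background 26.1% and 27.5%). In the shallower libraries alone 55 were higher and 1 lower (background 23.8% and 22.6%). Without R26 hypoxia 3, which belongs to neither group but enters the common estimate of the spread, the group-only count was 28 higher and 1 lower. The median was 0.19 to 0.43 when 1 library was left out, lowest without R26 normoxia 3. The 3 comparisons share libraries in pairs and are given side by side. Comparing only the deeper libraries with each other, 1 per group and so without a test, the median log2 ratio of the 81 genes was 0.89 for HIF1a-ko hypoxia over R26 hypoxia, -0.35 for R26 hypoxia over R26 normoxia and 0.51 for HIF1a-ko hypoxia over R26 normoxia.

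**Figure D2:**
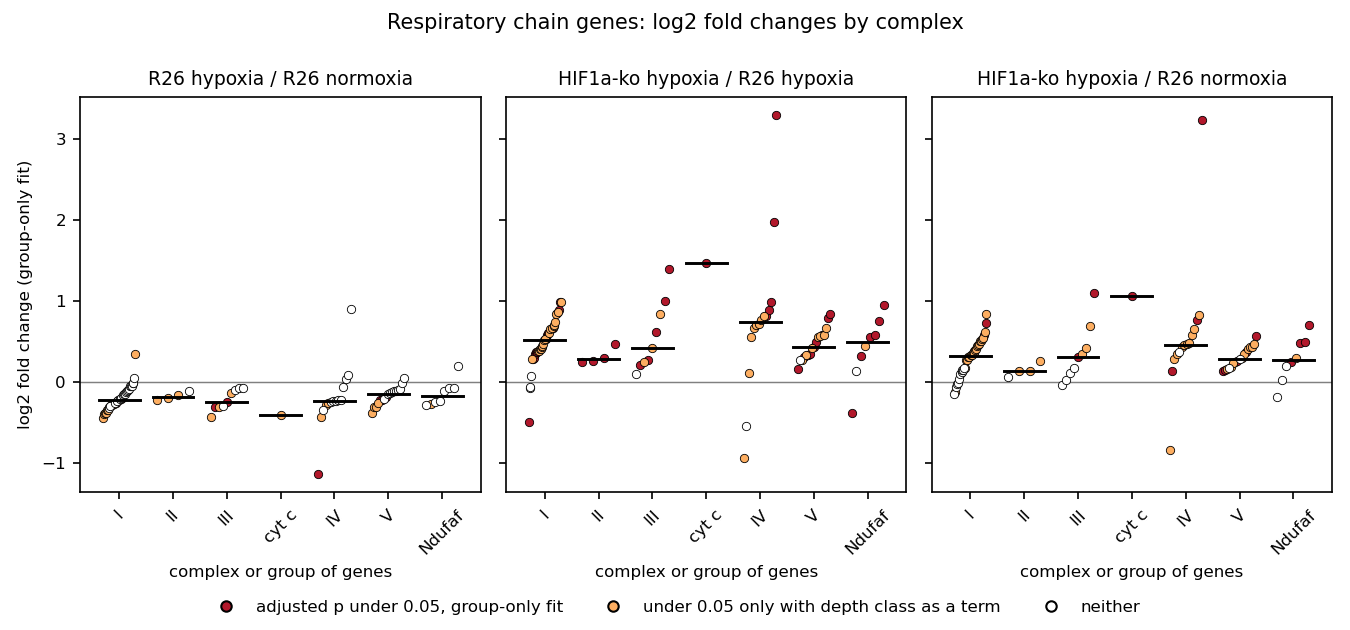
Log2 fold changes of the respiratory chain genes tested in 3 comparisons (panels), by complex and for the Ndufaf assembly factors; 1 point is 1 gene, horizontal bars are medians and fill shows in which fit the adjusted p was under 0.05. In the middle panel every complex has its median above 0, from 0.28 for complex II to 0.74 for complex IV, with cytochrome c at 1.47.

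**Figure D3:**
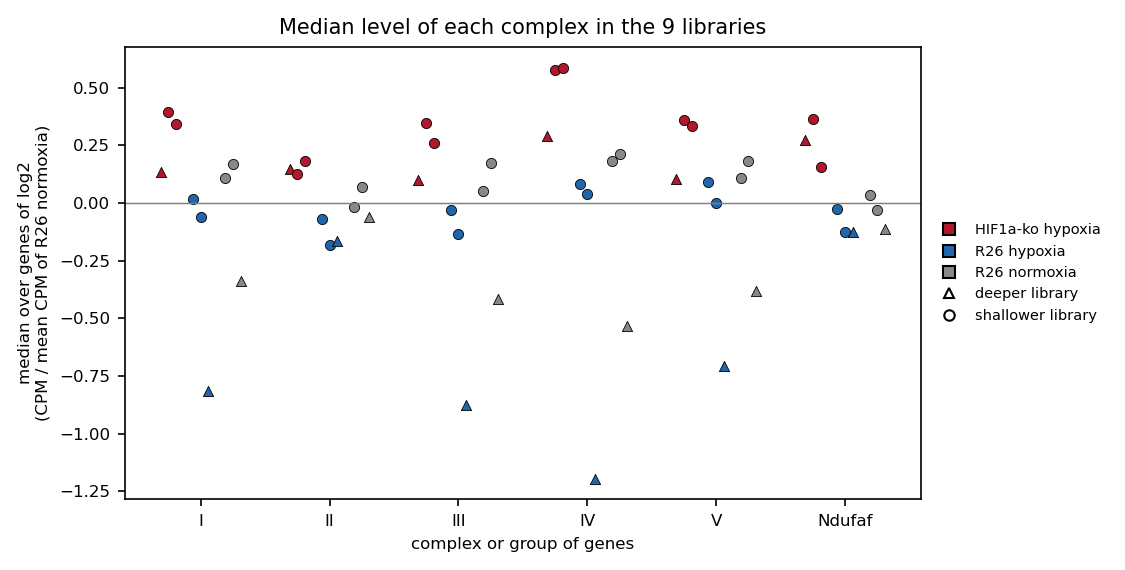
Median over the genes of each complex of the log2 ratio of a library's CPM to the mean CPM of R26 normoxia, for all 9 libraries; triangles are deeper and circles shallower libraries. For complex I the deeper libraries sat at 0.13 in HIF1a-ko hypoxia, -0.81 in R26 hypoxia and -0.34 in R26 normoxia, while of the 5 complexes complex II spread least within each group.

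The 7 core subunits of complex I carry the flavin, the iron-sulfur clusters and part of the quinone site. Between HIF1a-ko hypoxia and R26 hypoxia, 5 of the 7 were higher in each of the 3 fits. Their median log2 fold change was 0.30 in the group-only fit. The share of all genes called higher was 22.6% in the group-only fit, 29.0% with the depth term and 26.2% in the shallower libraries. Ndufs8, an iron-sulfur subunit (ENSMUSG00000059734, GRCm38 chromosome 19, 3908863 to 3912774, minus strand), had 69.6, 71.8 and 74.7 CPM in HIF1a-ko hypoxia 1 to 3, 41.0, 35.2 and 32.8 CPM in R26 hypoxia and 45.01, 48.4 and 37.7 CPM in R26 normoxia. All 3 HIF1a-ko libraries lay above all 6 R26 libraries, and the log2 fold changes were 0.99 ± 0.10 relative to R26 hypoxia (adjusted p = 4.1e-05) and 0.72 ± 0.10 relative to R26 normoxia (adjusted p = 0.00038). Ndufs7, which holds the last iron-sulfur cluster before quinone, had 55.9, 56.0 and 55.7 CPM in HIF1a-ko hypoxia, against 42.4, 39.4 and 33.9 CPM in R26 hypoxia and 42.2, 48.6 and 37.5 CPM in R26 normoxia. It too was above both R26 groups (log2 fold changes 0.54 ± 0.10, adjusted p = 0.0018, and 0.39 ± 0.10, adjusted p = 0.012).

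Ndufv1, which binds the flavin, had 109, 115 and 114 CPM in HIF1a-ko hypoxia, 98.4, 88.6 and 87.7 CPM in R26 hypoxia and 110.4, 118 and 100.1 CPM in R26 normoxia. It was the core subunit that passed as lower in R26 hypoxia against R26 normoxia (-0.26 ± 0.07, adjusted p = 0.022). It was higher in HIF1a-ko hypoxia than in R26 hypoxia (0.30 ± 0.07, adjusted p = 0.0053), and against R26 normoxia its estimate was 0.04 ± 0.07 (adjusted p = 0.68). Ndufs1, the largest core subunit, and Ndufv2 were also higher in HIF1a-ko hypoxia than in R26 hypoxia, by 0.29 ± 0.06 and 0.38 ± 0.13 on the log2 scale (adjusted p = 0.0039 and 0.043). Ndufs3 of the quinone-reducing part stood apart from these. Ndufs3 had 44.1, 40.9 and 39.1 CPM in HIF1a-ko hypoxia, against 40.2, 40.4 and 37.3 CPM in R26 hypoxia and 39.7, 43.9 and 43.0 CPM in R26 normoxia. It passed in no comparison of the group-only fit, and its estimate against R26 hypoxia was 0.08 ± 0.06. With the replicate block, Ndufs1, Ndufs8 and Ndufv2 were also lower in R26 hypoxia than in R26 normoxia (log2 fold changes -0.17, -0.24 and -0.19; adjusted p = 0.01, 0.011 and 0.0099). Leaving out any library but R26 hypoxia 1 or R26 normoxia 3 ended the call of Ndufv2 against R26 hypoxia (adjusted p up to 0.128). The call of Ndufv1 in R26 hypoxia ended without R26 normoxia 1 or 2 or R26 hypoxia 2 or 3 (adjusted p up to 0.0872).

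The 29 accessory subunits of complex I had a higher median than the core, 0.58 against R26 hypoxia. There were 8 higher and 1 lower in the group-only fit (background 22.6% and 24.1%), so the share called higher was near that over all genes. The depth term gave 27 higher and 1 lower (background 29.0% and 29.5%). The shallower libraries gave 26 higher and 2 lower (background 26.2% and 25.6%). The group-only count of higher genes was 14 without R26 normoxia 3 or R26 hypoxia 1 and 5 without HIF1a-ko hypoxia 2 or 3, and without R26 hypoxia 3 the median was 0.33. Ndufab1, the mitochondrial acyl carrier protein, had 39.6, 43.6 and 40.7 CPM in HIF1a-ko hypoxia, 28.3, 26.5 and 23.1 CPM in R26 hypoxia and 30.6, 28.2 and 23.9 CPM in R26 normoxia. Its HIF1a-ko libraries lay above the other 6, by 0.67 ± 0.10 against R26 hypoxia and 0.59 ± 0.10 against R26 normoxia (adjusted p = 0.00046 and 0.0013). Ndufa12 had 51.6, 59.6 and 59.2 CPM in HIF1a-ko hypoxia, against 40.2, 34.2 and 18.3 CPM in R26 hypoxia and 44.9, 48.6 and 26.9 CPM in R26 normoxia; the lowest value of each R26 group was its deeper library. Its log2 fold change against R26 hypoxia was 0.89 ± 0.29 (adjusted p = 0.029), and the call ended without R26 hypoxia 2, HIF1a-ko hypoxia 2 or HIF1a-ko hypoxia 3 (adjusted p up to 0.0756). Ndufa10 was the accessory subunit that passed as lower in R26 hypoxia against R26 normoxia, with 40.6, 41.9 and 43.9 CPM in R26 hypoxia and 47.0, 47.9 and 53.0 CPM in R26 normoxia (-0.23 ± 0.07, adjusted p = 0.036). That call ended without any 1 of 5 libraries, R26 normoxia 2 or 3, R26 hypoxia 1 or 2 or HIF1a-ko hypoxia 3 (adjusted p up to 0.158).

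Ndufv3, a small accessory subunit beside the NADH-binding site, was the gene of complex I that passed as lower in HIF1a-ko hypoxia. It had 15.8, 19.1 and 19.9 CPM in HIF1a-ko hypoxia 1 to 3, against 27.6, 29.9 and 19.9 CPM in R26 hypoxia and 20.7, 22.9 and 17.3 CPM in R26 normoxia. The highest HIF1a-ko library and the lowest library of R26 hypoxia, its deeper one, met at 19.9 CPM. HIF1a-ko hypoxia against R26 hypoxia had a log2 fold change of -0.49 ± 0.16 (adjusted p = 0.032; 3.4e-05 with the depth term). In R26 hypoxia against R26 normoxia the estimate was 0.35 ± 0.16 (adjusted p = 0.16), and it passed as higher with the depth term (adjusted p = 0.0016) and with the replicate block (adjusted p = 0.0015). The call against R26 hypoxia ended without R26 hypoxia 1 or 2 or any 1 of the 3 HIF1a-ko libraries (adjusted p up to 0.12). In all of complex I, R26 hypoxia against R26 normoxia gave 2 lower and 0 higher of 36 in the group-only fit. Both shares lay below those over all genes, 12.7% and 13.1%. At an unadjusted p under 0.05 there were 5 lower and 0 higher, and 4 and 0 with DESeq2. The depth term gave 16 lower and 1 higher (background 19.9% and 19.1%), and the block 19 lower and 1 higher (background 20.1% and 22.5%). The 2 lower calls became 1 without R26 normoxia 1 or HIF1a-ko hypoxia 3 and 0 without R26 normoxia 2 or R26 hypoxia 2. HIF1a-ko hypoxia against R26 normoxia gave 4 higher (Ndufs8, Ndufs7, Ndufab1 and Ndufb5) and 0 lower in the group-only fit. These shares, too, lay below those over all genes, 19.9% and 22.1%. With the depth term 25 were higher and 1 lower (background 26.1% and 27.5%). The group-only count was 3 to 10 higher when 1 library was left out, and 10 without R26 hypoxia 3. The call of Ndufb5 ended without any 1 of the HIF1a-ko libraries or R26 normoxia 2 or 3 (adjusted p up to 0.0992).

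Complex II, which is succinate dehydrogenase of the citric acid cycle and wholly encoded in the nucleus, showed small differences that had the same sign in its 4 genes. Sdha, the flavoprotein, had 292, 314 and 329.6 CPM in HIF1a-ko hypoxia, 270.0, 252 and 237 CPM in R26 hypoxia and 293, 300.0 and 255 CPM in R26 normoxia. Sdhb, the iron-sulfur subunit, had 51.4, 54.8 and 52.3 CPM in HIF1a-ko hypoxia, against 42.8, 38.7 and 32.7 CPM in R26 hypoxia and 45.6, 49.6 and 37.7 CPM in R26 normoxia. Sdhd, a membrane anchor, had 68.3, 65.1 and 67.1 CPM in HIF1a-ko hypoxia, against 57.8, 54.0 and 57.6 CPM in R26 hypoxia and 57.6, 63.0 and 61.9 CPM in R26 normoxia. Each of the 4, with Sdhc as the other anchor, passed as higher in HIF1a-ko hypoxia than in R26 hypoxia. The log2 fold changes were 0.30 ± 0.08 for Sdha (adjusted p = 0.0092) and 0.48 ± 0.12 for Sdhb (adjusted p = 0.0072). For Sdhc and Sdhd they were 0.26 ± 0.08 and 0.24 ± 0.05 (adjusted p = 0.025 and 0.0032). Of all genes, 22.6% passed as higher in that comparison. Complex II had no call in the other comparisons of the group-only fit. At an unadjusted p under 0.05 that fit gave 1 lower in R26 hypoxia and 2 higher in HIF1a-ko hypoxia, both against R26 normoxia, and DESeq2 gave 0 and 2 after adjustment. With the depth term, and likewise with the block, 3 of the 4 were lower in R26 hypoxia than in R26 normoxia (Sdha, Sdhb and Sdhc, adjusted p = 0.017, 0.017 and 0.0059 with the block). The background of lower genes was 19.9% with the depth term and 20.1% with the block. Without R26 hypoxia 1, R26 hypoxia 2 or HIF1a-ko hypoxia 1 the call of Sdhc ended (adjusted p up to 0.0906).

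In complex III the log2 fold changes between HIF1a-ko hypoxia and R26 hypoxia were largest in the small subunits Uqcrq and Uqcr10, smaller in cytochrome c1 and smaller still in the core proteins. Uqcrq, a small subunit of the membrane part (ENSMUSG00000044894, GRCm38 chromosome 11, 53427922 to 53430831, minus strand), had 48.9, 52.9 and 55.6 CPM in HIF1a-ko hypoxia 1 to 3, 26.6, 22.6 and 11.5 CPM in R26 hypoxia and 28.8, 27.9 and 17.5 CPM in R26 normoxia. The HIF1a-ko libraries were all above the R26 libraries, 2.63-fold higher than R26 hypoxia (log2 fold change 1.39 ± 0.29, adjusted p = 0.0029) and 2.14-fold higher than R26 normoxia (1.09 ± 0.28, adjusted p = 0.012). Cyc1, cytochrome c1, had 74.9, 62.4 and 65.0 CPM in HIF1a-ko hypoxia, against 45.4, 41.1 and 44.97 CPM in R26 hypoxia and 53.8, 53.8 and 55.4 CPM in R26 normoxia. Its 3 groups did not overlap: it was lower in R26 hypoxia than in R26 normoxia (-0.31 ± 0.07, adjusted p = 0.012). HIF1a-ko hypoxia was above R26 hypoxia (0.62 ± 0.07, adjusted p = 7.9e-05) and above R26 normoxia (0.31 ± 0.07, adjusted p = 0.0062). Leaving out any 1 library ended none of these calls of Uqcrq and Cyc1.

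Uqcrc1, a core protein of complex III, had 131, 117 and 116 CPM in HIF1a-ko hypoxia, 102, 93.1 and 106 CPM in R26 hypoxia and 114, 118 and 125 CPM in R26 normoxia. It was lower in R26 hypoxia than in R26 normoxia (-0.25 ± 0.07, adjusted p = 0.023), a call that ended without R26 normoxia 2, R26 normoxia 3 or R26 hypoxia 2 (adjusted p up to 0.0958). It was higher in HIF1a-ko hypoxia than in R26 hypoxia (0.27 ± 0.07, adjusted p = 0.0078). Uqcrc2, the other core protein, was higher in HIF1a-ko hypoxia than in R26 hypoxia by 0.21 ± 0.05 (adjusted p = 0.0046). Uqcrfs1, the Rieske iron-sulfur protein, had 66.6, 61 and 59.0 CPM in HIF1a-ko hypoxia, against 58.5, 58.1 and 57.9 CPM in R26 hypoxia and 63.1, 63.5 and 64.7 CPM in R26 normoxia. It did not pass in the group-only fit, and with the block it was lower in R26 hypoxia than in R26 normoxia (-0.11, adjusted p = 0.044). Uqcr10, another small subunit, was higher in HIF1a-ko hypoxia than in R26 hypoxia (1.00 ± 0.31, adjusted p = 0.023), but not without HIF1a-ko hypoxia 2 or HIF1a-ko hypoxia 3 (adjusted p up to 0.0677). Over the 9 genes, HIF1a-ko hypoxia against R26 hypoxia gave 5 higher and 0 lower (background 22.6% and 24.1%). There were 6 and 0 at an unadjusted p under 0.05, and 5 and 0 with DESeq2. The depth term gave 8 and 0 (background 29.0% and 29.5%). R26 hypoxia against R26 normoxia gave 2 lower, or 5 with the depth term and 6 with the block, among them Uqcrq (-0.32, adjusted p = 0.015). The background of lower genes was 12.7% in the group-only fit, 19.9% with the depth term and 20.1% with the block. Without R26 normoxia 2 or 3 or R26 hypoxia 2 the 2 became 1.

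Cytochrome c carries electrons from complex III to complex IV and, once released to the cytosol, triggers the apoptosome. Its somatic gene Cycs (ENSMUSG00000063694, GRCm38 chromosome 6, 50562563 to 50566538, minus strand) had 42.9, 46.4 and 54.5 CPM in HIF1a-ko hypoxia 1 to 3, 20.4, 18.8 and 13.1 CPM in R26 hypoxia and 24.9, 26.3 and 17.9 CPM in R26 normoxia. Every HIF1a-ko library was above every R26 library. Cycs was 2.77-fold higher than in R26 hypoxia (log2 fold change 1.47 ± 0.19, adjusted p = 0.00017) and 2.09-fold higher than in R26 normoxia (1.06 ± 0.19, adjusted p = 0.0014). In the 6 shallower libraries the log2 fold changes were 1.37 and 1.00. R26 hypoxia against R26 normoxia gave -0.41 ± 0.19 (adjusted p = 0.16), and the gene passed as lower there with the block (adjusted p = 0.00073). Cycs shares 26.2% of its 50-base words with transcripts of other genes, so its level depends on how the authors' counting treated reads that match several places, which is not given in the sources used here.

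In complex IV, Ndufa4 was the member with the largest log2 fold change between HIF1a-ko hypoxia and R26 hypoxia after the sparsely counted Cox6a2. Ndufa4 (ENSMUSG00000029632, GRCm38 chromosome 6, 11900292 to 11907497, minus strand) had 78.1, 105 and 102 CPM in HIF1a-ko hypoxia 1 to 3, 31.5, 28.3 and 13.5 CPM in R26 hypoxia and 61.3, 62.2 and 37.0 CPM in R26 normoxia. Each group had its lowest value in its deeper library, and the 3 groups did not overlap. R26 hypoxia was 2.21-fold lower than R26 normoxia (log2 fold change -1.14 ± 0.31, adjusted p = 0.024), and HIF1a-ko hypoxia was 3.93-fold higher than R26 hypoxia (1.98 ± 0.31, adjusted p = 0.00061). Against R26 normoxia, HIF1a-ko hypoxia had an estimate of 0.83 ± 0.30 (adjusted p = 0.0503), which passed with the depth term (0.87, adjusted p = 1.4e-05). The call of Ndufa4 in R26 hypoxia ended without R26 normoxia 1 or R26 normoxia 2 (adjusted p up to 0.0804), and it was kept in the shallower libraries alone (-1.03, adjusted p = 4.5e-08). Its paralogue Ndufa4l2, known as a HIF-1 target, was counted at 0.113 to 1.07 CPM in all 9 libraries. It was higher in R26 hypoxia than in R26 normoxia (2.28 ± 0.35, adjusted p = 0.0015) and lower in HIF1a-ko hypoxia than in R26 hypoxia (-1.26 ± 0.29, adjusted p = 0.0059).

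Cox5a, a matrix-side subunit of complex IV (ENSMUSG00000000088, GRCm38 chromosome 9, 57521274 to 57532426, plus strand), had 55.3, 63.8 and 58.6 CPM in HIF1a-ko hypoxia, 36.7, 29.9 and 23.0 CPM in R26 hypoxia and 39.9, 37.0 and 27.8 CPM in R26 normoxia. It was higher in HIF1a-ko hypoxia than in either R26 group without overlap (1.00 ± 0.17 against R26 hypoxia, adjusted p = 0.0011, and 0.77 ± 0.17 against R26 normoxia, adjusted p = 0.0058). Over the 14 genes of complex IV that passed the filter on low counts, HIF1a-ko hypoxia against R26 hypoxia gave 5 higher and 0 lower (8 and 0 at an unadjusted p under 0.05, and 7 and 0 with DESeq2) with a median of 0.74. The depth term gave 12 higher and 1 lower, and the shallower libraries alone 11 higher and 2 lower with a median of 0.56. The background was 22.6% higher and 24.1% lower in the group-only fit. It was 29.0% and 29.5% with the depth term, and 26.2% and 25.6% in the shallower libraries. Without R26 normoxia 1 or 2 or HIF1a-ko hypoxia 1 or 2 the 5 became 3, and without R26 hypoxia 3 the median was 0.42. Of the 5 complexes, complex IV also had the largest difference between the deeper libraries, a median log2 ratio of 1.37 for HIF1a-ko hypoxia 1 over R26 hypoxia 3. R26 hypoxia against R26 normoxia gave 1 lower, Ndufa4, and 0 higher in complex IV (1 and 0 also at an unadjusted p under 0.05 and with DESeq2), 4 lower with the depth term, and 8 lower and 1 higher with the block. Among the 8 were Cox5a and Cox8a (log2 fold changes -0.21 and -0.29, adjusted p = 0.0094 and 0.047). The background of lower genes was 12.7% in the group-only fit, 19.9% with the depth term and 20.1% with the block.

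**Figure D4:**
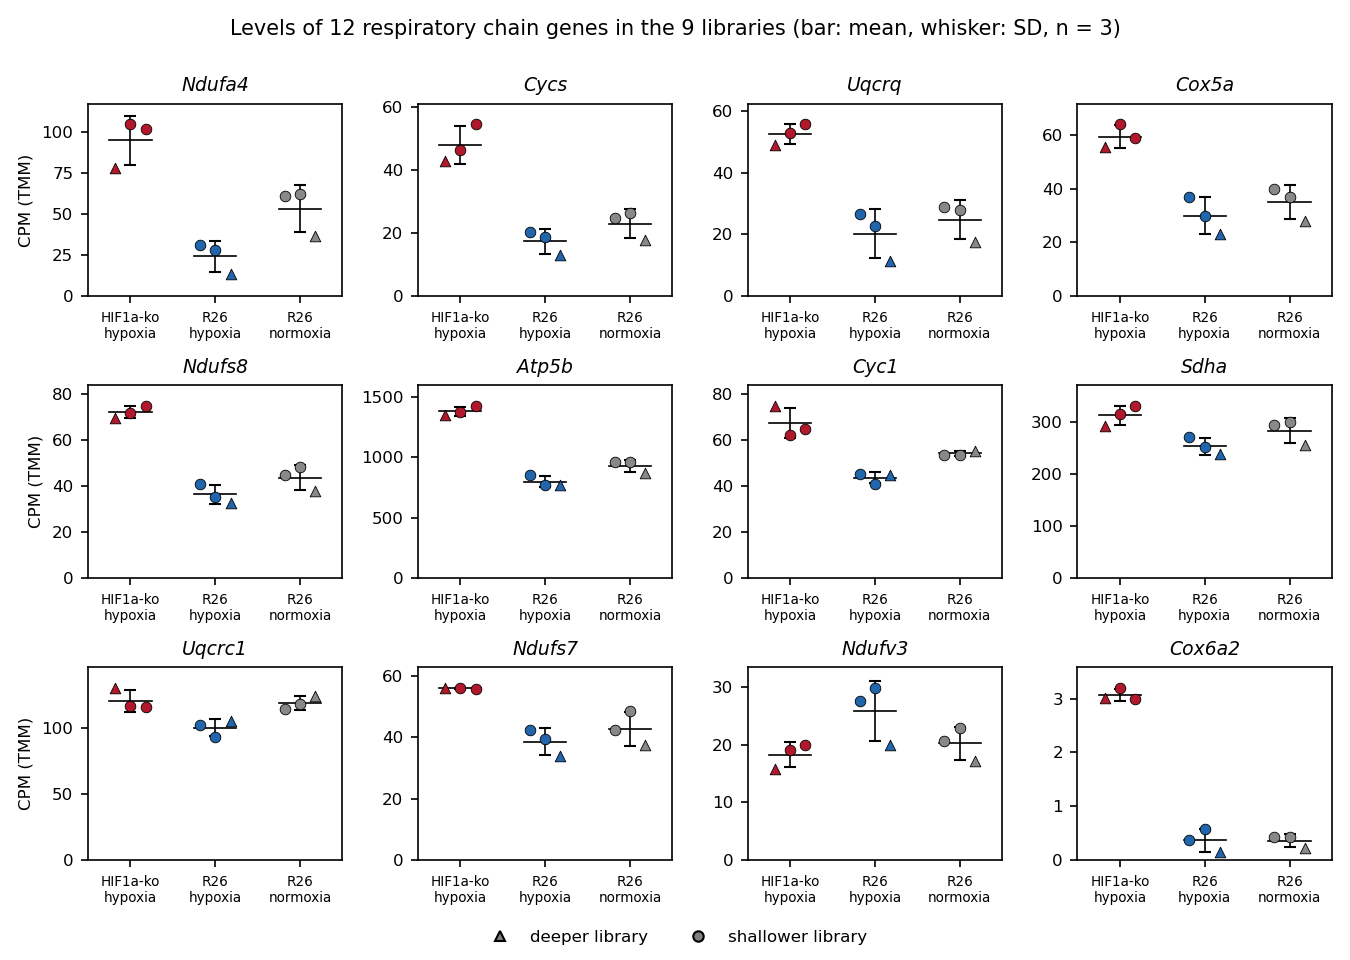
CPM of 12 respiratory chain genes in HIF1a-ko hypoxia, R26 hypoxia and R26 normoxia; triangles are deeper and circles shallower libraries, bars are means and whiskers SD (n = 3). Cycs, Uqcrq, Cox5a and Ndufs8 have all 3 HIF1a-ko libraries above the 6 R26 libraries, and Ndufv3 has them at or below those of R26 hypoxia.

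Several complex IV subunits come as isoform pairs, 1 for most tissues and 1 restricted to muscle, brown fat or testis. The widespread isoforms Cox6a1, Cox7a2 and Cox8a had 118, 128 and 139 CPM, 39.7, 47.6 and 47.4 CPM and 138, 173 and 169.9 CPM in HIF1a-ko hypoxia, against 99.8, 80.6 and 38.8 CPM, 33.1, 29.1 and 14.7 CPM and 109, 109 and 44.03 CPM in R26 hypoxia. Cox7a2 and Cox8a passed as higher (0.82 ± 0.29 and 0.89 ± 0.32, adjusted p = 0.044 and 0.048), and Cox6a1 had 0.82 ± 0.31 (adjusted p = 0.053). The call of Cox7a2 ended without any library but R26 hypoxia 1 or R26 normoxia 3 (adjusted p up to 0.109). That of Cox8a ended without R26 normoxia 1 or 2 or any 1 of the HIF1a-ko libraries (adjusted p up to 0.118). With the depth term both were higher (adjusted p = 3.2e-05 and 3.7e-05), and so was Cox6a1 (adjusted p = 0.0002). Cox7b and Cox6b1, which have the testis isoforms Cox7b2 and Cox6b2, gave 0.76 ± 0.30 and 0.66 ± 0.31 (adjusted p = 0.063 and 0.11). Cox7a2l, a Cox7a relative that links complexes III and IV, had 238, 242 and 227 CPM in HIF1a-ko hypoxia, against 212, 222 and 208 CPM in R26 normoxia (0.14 ± 0.05, adjusted p = 0.031). That call ended without R26 normoxia 1 or 3 or HIF1a-ko hypoxia 1 or 2 (adjusted p up to 0.102).

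Cox6a2, the heart and skeletal muscle isoform, was counted at 3.01, 3.20 and 2.99 CPM in HIF1a-ko hypoxia, from 289, 169 and 147 reads. It was counted at 0.370, 0.577 and 0.142 CPM in R26 hypoxia, from 17, 29 and 15 reads, and at 0.429, 0.418 and 0.214 CPM in R26 normoxia, from 19, 18 and 19 reads. The HIF1a-ko libraries were close together and far above the rest, with log2 fold changes of 3.30 ± 0.33 and 3.24 ± 0.34 (adjusted p = 3.6e-05 and 5.7e-05). Per kilobase of transcript it stayed far below Cox6a1, at 4.51 against 225 CPM per kilobase in HIF1a-ko hypoxia. The 11 striated muscle markers summed to 9.14 to 10.5 CPM in HIF1a-ko hypoxia, 16.3 to 20.3 CPM in R26 hypoxia and 14.1 to 14.8 CPM in R26 normoxia. The largest part of this sum was Actn3, with 5.58 to 6.43 CPM in HIF1a-ko hypoxia, 11.5 to 14.5 CPM in R26 hypoxia and 10.6 to 11.3 CPM in R26 normoxia. Not every marker followed the sum. Tnnt3 in HIF1a-ko hypoxia 1 and 2 was above all R26 normoxia libraries, and Ckm, near 0, was not lowest in HIF1a-ko hypoxia. The relation of these markers to Cox6a2 was not tested. Myh6 was at 0 throughout HIF1a-ko hypoxia and R26 hypoxia, and Myh7 throughout R26 hypoxia. The exons of Cox6a2 overlap Itgad on the opposite strand, and the strand setting of the counting is not given in the sources used here. Among the other restricted isoforms, Cox6b2 had 0.698, 1.29 and 1.22 CPM in HIF1a-ko hypoxia, against 2.501, 3.06 and 0.832 CPM in R26 hypoxia and 1.94, 2.14 and 1.52 CPM in R26 normoxia. Its estimate was -0.93 ± 0.48 against R26 hypoxia (adjusted p = 0.15; 0.008 with the depth term). Cox7a1 had 0.265 to 0.416 CPM in HIF1a-ko hypoxia, 0.331 to 0.761 CPM in R26 hypoxia and 0.169 to 0.429 CPM in R26 normoxia. It passed in no comparison of the group-only fit, and with the block it was higher in R26 hypoxia than in R26 normoxia (0.94, adjusted p = 0.028). Cox8b had 0 to 4 reads in a library, and Cox7b2 and Cox8c had 0 reads in all 9; these 3 did not pass the filter on low counts.

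In the ATP synthase, complex V, both subunits that form the catalytic head passed in all 3 comparisons. Atp5b, the catalytic beta subunit (ENSMUSG00000025393, GRCm38 chromosome 10, 128083273 to 128090391, plus strand), had 1348, 1371 and 1422 CPM in HIF1a-ko hypoxia 1 to 3, 851, 772 and 771 CPM in R26 hypoxia and 959, 958 and 871 CPM in R26 normoxia. It was the highest of the 92 genes per kilobase of transcript, at 720.5 CPM per kilobase in HIF1a-ko hypoxia, 417 in R26 hypoxia and 485 in R26 normoxia. It was 1.73-fold higher in HIF1a-ko hypoxia than in R26 hypoxia (log2 fold change 0.79 ± 0.06, adjusted p = 4.3e-06) and 1.49-fold higher than in R26 normoxia (0.57 ± 0.06, adjusted p = 4.4e-05). Atp5a1, the alpha subunit, had 632, 642 and 660.0 CPM in HIF1a-ko hypoxia, against 527, 488 and 504 CPM in R26 hypoxia and 590.2, 594 and 581 CPM in R26 normoxia. Its groups did not overlap, with log2 fold changes of 0.35 ± 0.04 in HIF1a-ko hypoxia against R26 hypoxia (adjusted p = 0.00011) and -0.22 ± 0.04 in R26 hypoxia against R26 normoxia (adjusted p = 0.005). In R26 hypoxia against R26 normoxia the calls of complex V were 3 lower, Atp5a1, Atp5b (-0.22 ± 0.06, adjusted p = 0.022) and Atp5f1 of the stalk (-0.19 ± 0.06, adjusted p = 0.044, named after its value was seen). Of all genes, 12.7% were lower in that comparison. The call of Atp5f1 there was kept only without R26 hypoxia 1 or R26 normoxia 3 (adjusted p up to 0.158), and that of Atp5b ended without R26 normoxia 1 or 2 or R26 hypoxia 2 or 3 (adjusted p up to 0.0835), each of which left 1 call in complex V. Atp5a1 was also higher in HIF1a-ko hypoxia than in R26 normoxia (0.13 ± 0.04, adjusted p = 0.03), but not without R26 normoxia 1, R26 normoxia 2 or HIF1a-ko hypoxia 2 (adjusted p up to 0.0781).

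Of the 17 genes of complex V, 9 were higher and 0 lower in HIF1a-ko hypoxia than in R26 hypoxia in the group-only fit (also 9 and 0 at an unadjusted p under 0.05 and with DESeq2). With the depth term 16 were higher, and in the shallower libraries 15. The background of higher genes was 22.6% in the group-only fit, 29.0% with the depth term and 26.2% in the shallower libraries. The c ring is encoded by 3 genes whose mature proteins are the same. Atp5g1 had 47.8, 50.8 and 50.6 CPM in HIF1a-ko hypoxia, 32.0, 32.1 and 19.5 CPM in R26 hypoxia and 40.6, 39.5 and 28.4 CPM in R26 normoxia, and was higher than in R26 hypoxia (0.85 ± 0.19, adjusted p = 0.0053). Atp5g3 had 98.5, 108.5 and 113 CPM in HIF1a-ko hypoxia, against 87.8, 82.5 and 57.6 CPM in R26 hypoxia and 101, 109 and 72.3 CPM in R26 normoxia (0.49 ± 0.18 against R26 hypoxia, adjusted p = 0.046). Its call ended without R26 normoxia 1, R26 hypoxia 2 or 3 or any 1 of the HIF1a-ko libraries (adjusted p up to 0.121). Atp5g2 had an estimate of 0.28 ± 0.21 (adjusted p = 0.31) and shares 38.4% of its 50-base words with other genes' transcripts. With the block, Atp5g1 and Atp5g3 were lower in R26 hypoxia than in R26 normoxia (-0.38 and -0.29, adjusted p = 0.00093 and 0.0009).

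Atp5k, the e subunit, which helps ATP synthase form dimers, had 6.51, 14.1 and 15.9 CPM in HIF1a-ko hypoxia, 11.3, 10.0 and 3.50 CPM in R26 hypoxia and 10.7, 13.1 and 6.33 CPM in R26 normoxia. Each group had its lowest value of Atp5k in its deeper library. Its estimate against R26 hypoxia was 0.59 ± 0.47 (adjusted p = 0.35) in the group-only fit and 0.61 (adjusted p = 0.00089) with the depth term. Atp5s, factor B, was higher in HIF1a-ko hypoxia than in R26 hypoxia and R26 normoxia (0.31 ± 0.11 and 0.37 ± 0.11, adjusted p = 0.043 and 0.025). Those calls ended without any library but R26 normoxia 3 or HIF1a-ko hypoxia 1 (adjusted p up to 0.146), and without R26 normoxia 1, R26 normoxia 3 or HIF1a-ko hypoxia 2 (adjusted p up to 0.0783). Atpif1, the inhibitor that binds the synthase when the gradient fails, lies outside the symbol rule. It had 46.4, 47.2 and 46.4 CPM in HIF1a-ko hypoxia, against 44.7, 46.5 and 27.0 CPM in R26 hypoxia and 54.2, 57.7 and 42.8 CPM in R26 normoxia, and passed in no comparison of the group-only fit. HIF1a-ko hypoxia against R26 normoxia gave 6 higher in complex V (Atp5a1, Atp5b, Atp5c1, Atp5d, Atp5f1 and Atp5s) and 0 lower, or 3 higher without R26 normoxia 1. The background of the group-only fit was 19.9% higher and 22.1% lower. The call of Atp5d ended without HIF1a-ko hypoxia 1 or any 1 of the R26 normoxia libraries (adjusted p up to 0.0701).

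Within a complex, the log2 fold changes of HIF1a-ko hypoxia against R26 hypoxia ran from -0.49 to 0.99 over the 36 tested genes of complex I, and from 0.24 to 0.48 over complex II. They ran from 0.10 to 1.39 over complex III, from -0.93 to 3.30 over complex IV and from 0.16 to 0.85 over complex V. All 17 tested genes of complex V and all 9 of complex III had estimates above 0. By transcript length, of the 44 genes under 800 bases 12 were higher and 1 lower, and of the 37 longer ones 25 were higher and 0 lower, although the shorter genes had the larger median, 0.63 against 0.38. The 12 became 6 without HIF1a-ko hypoxia 2 or 3, and without R26 hypoxia 3 the median of the shorter genes was 0.33. With depth class as a term these counts were 39 higher and 2 lower among the shorter genes, and 34 higher and 0 lower among the longer ones. The background was 22.6% higher and 24.1% lower in the group-only fit, and 29.0% and 29.5% with the depth term. In the group-only fit the share of shorter genes called higher was thus near that over all genes. Some members share sequence with other genes. Of the 92, 40 shared none of their 50-base words and 21 shared over 10%, among them Atp5o at 41.6% and Uqcrb at 25.5%. The exons of 27 overlapped another gene's on the opposite strand, and levels of such genes are uncertain to that extent.

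The 8 Ndufaf genes encode factors that build complex I and are not part of it. Between HIF1a-ko hypoxia and R26 hypoxia 5 were higher and 1 lower in the group-only fit (background 22.6% and 24.1%). Their median log2 fold change was 0.50. With the depth term 6 were higher and 1 lower (background 29.0% and 29.5%). Ndufaf4, which works with Ndufaf3 on the quinone-reducing part, had 12.1, 9.88 and 11.1 CPM in HIF1a-ko hypoxia, 6.53, 5.53 and 7.35 CPM in R26 hypoxia and 6.89, 7.55 and 8.94 CPM in R26 normoxia. Its HIF1a-ko libraries were above both R26 groups (0.76 ± 0.13 and 0.49 ± 0.13, adjusted p = 0.0012 and 0.015), and the call against R26 normoxia ended without HIF1a-ko hypoxia 1 or R26 normoxia 1 (adjusted p up to 0.0579). Ndufaf3 itself had 5.34, 5.51 and 5.37 CPM in HIF1a-ko hypoxia, against 7.48, 7.72 and 6.14 CPM in R26 hypoxia and 6.78, 5.95 and 5.82 CPM in R26 normoxia. It was the Ndufaf gene that was lower in HIF1a-ko hypoxia than in R26 hypoxia (-0.38 ± 0.11, adjusted p = 0.017), though not without R26 hypoxia 1, R26 hypoxia 2, HIF1a-ko hypoxia 1 or HIF1a-ko hypoxia 3 (adjusted p up to 0.061). Ndufaf5, which modifies Ndufs7, and Ndufaf7, a methyltransferase, were higher by 0.56 ± 0.10 and 0.32 ± 0.06 (adjusted p = 0.0014 and 0.0015), and Ndufaf6 by 0.58 ± 0.12 (adjusted p = 0.0038). Ndufaf2 had the largest fold change of the 8, 0.95 ± 0.25 against R26 hypoxia and 0.71 ± 0.25 against R26 normoxia (adjusted p = 0.012 and 0.048). It shares 64.1% of its words with other genes' transcripts, and its call against R26 normoxia ended without any 1 of 6 libraries, R26 normoxia 2 or 3, R26 hypoxia 2 or any HIF1a-ko library (adjusted p up to 0.147). In R26 hypoxia against R26 normoxia the group-only fit gave 0 higher and 0 lower, also at an unadjusted p under 0.05 and with DESeq2, and with the block Ndufaf4 was lower (-0.25, adjusted p = 0.049). HIF1a-ko hypoxia against R26 normoxia gave 4 higher (Ndufaf2, Ndufaf4, Ndufaf5 and Ndufaf7) and 0 lower, or 2 higher without HIF1a-ko hypoxia 1. The background of the group-only fit was 13.1% higher and 12.7% lower for R26 hypoxia against R26 normoxia. For HIF1a-ko hypoxia against R26 normoxia it was 19.9% and 22.1%.

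A list of 41 other assembly factors of all 5 complexes, of which 39 were tested, had 21 higher and 3 lower in HIF1a-ko hypoxia than in R26 hypoxia, and 15 higher and 4 lower than in R26 normoxia, with median log2 fold changes of 0.33 and 0.24 (backgrounds 22.6% and 24.1%, and 19.9% and 22.1%). R26 hypoxia against R26 normoxia gave 2 higher and 10 lower with a median of -0.12 (background 13.1% and 12.7%). Lrpprc, which stabilises mitochondrial mRNAs, had 115, 107.5 and 109.6 CPM in HIF1a-ko hypoxia, 63.1, 63.6 and 76.6 CPM in R26 hypoxia and 88.3, 89.9 and 99.97 CPM in R26 normoxia. It was higher in HIF1a-ko hypoxia than in R26 hypoxia (0.71 ± 0.08, adjusted p = 8.1e-05) and lower in R26 hypoxia than in R26 normoxia (-0.45 ± 0.08, adjusted p = 0.0035). Surf1, needed for the heme centre of complex IV, was among the exceptions, with 26.1, 28.2 and 25.8 CPM in HIF1a-ko hypoxia, against 37.9, 39.0 and 31.3 CPM in R26 hypoxia and 43.2, 44.4 and 35.3 CPM in R26 normoxia. It was lower in HIF1a-ko hypoxia than in both (-0.43 ± 0.11 and -0.62 ± 0.11, adjusted p = 0.0082 and 0.0013).

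Of 13 genes for regulators of respiratory genes, 6 were higher and 1 lower in HIF1a-ko hypoxia than in R26 hypoxia, and 7 higher and 1 lower than in R26 normoxia. There were 2 higher and 3 lower in R26 hypoxia than in R26 normoxia. The background was 22.6% higher and 24.1% lower for HIF1a-ko hypoxia against R26 hypoxia, 19.9% and 22.1% for HIF1a-ko hypoxia against R26 normoxia, and 13.1% and 12.7% for R26 hypoxia against R26 normoxia, so counts in a list of this size are given as a description. Ppargc1b, the coactivator PGC-1beta, had 5.75, 4.94 and 3.97 CPM in HIF1a-ko hypoxia, 1.00, 1.05 and 1.15 CPM in R26 hypoxia and 3.796, 4.25 and 4.11 CPM in R26 normoxia. R26 hypoxia lay below both other groups, with a log2 fold change of -1.90 ± 0.17 against R26 normoxia (adjusted p = 7.9e-05), and HIF1a-ko hypoxia was above it by 2.19 ± 0.17 (adjusted p = 5.3e-06). Ppargc1a, PGC-1alpha, had 5.83, 5.81 and 5.88 CPM in HIF1a-ko hypoxia, against 2.48, 2.15 and 2.85 CPM in R26 hypoxia and 2.87, 3.32 and 4.03 CPM in R26 normoxia. It was higher in HIF1a-ko hypoxia than in R26 hypoxia by 1.20 ± 0.14 (adjusted p = 0.0001). Of the 13 mRNAs of mitochondrial DNA, 9 were higher and 0 lower in HIF1a-ko hypoxia than in R26 hypoxia, and 1 higher and 7 lower than in R26 normoxia. There were 0 higher and 8 lower in R26 hypoxia than in R26 normoxia. With the depth term HIF1a-ko hypoxia had 13 higher and 0 lower against R26 hypoxia (background 29.0% and 29.5%). Against R26 normoxia it had 2 higher and 9 lower (background 26.1% and 27.5%). R26 hypoxia had 0 higher and 12 lower against R26 normoxia in that fit (background 19.1% and 19.9%). In HIF1a-ko hypoxia against R26 normoxia the median was 0.33 for the nuclear subunits and -0.52 for these mRNAs. The difference was not tested, and neither list was uniform. The share of nuclear subunits called higher was close to that over all genes, and mt-Nd3 was higher (1.35 ± 0.13, adjusted p = 3.5e-05). The mRNAs mt-Atp6, mt-Atp8 and mt-Co2 had 0.284 to 8.61 CPM. They were lower in the deeper libraries, by log2 differences of -2.89, -3.01 and -3.82. Lonp1, a mitochondrial protease, was higher in HIF1a-ko hypoxia than in R26 hypoxia (0.60 ± 0.07, adjusted p = 0.00011). It was also higher in R26 hypoxia than in R26 normoxia (0.37 ± 0.07, adjusted p = 0.0051). In HIF1a-ko hypoxia it was above R26 normoxia by 0.97 ± 0.07 (adjusted p = 6.2e-06). Cox4i1, the main Cox4 isoform, passed in no comparison of the group-only fit. Its estimate in HIF1a-ko hypoxia against R26 hypoxia was 0.42 ± 0.24 (adjusted p = 0.19). Cox4i2 did not pass the filter.

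Promoters of the members are shown for Cycs, Cox5a and Ndufa4. Cycs and Cox5a were higher in HIF1a-ko hypoxia than in either R26 group. Ndufa4 was higher in HIF1a-ko hypoxia than in R26 hypoxia and lower in R26 hypoxia than in R26 normoxia. In HIF1a-ko hypoxia against R26 normoxia it did not pass in the group-only fit. Each line is the 250 bases before the gene's start in RefSeq (GRCm38.p6), 5′ to 3′ on the gene's strand: chr6:50566570-50566819, minus strand, for Cycs, chr9:57520982-57521231, plus strand, for Cox5a, and chr6:11907451-11907700, minus strand, for Ndufa4. Capitals mark matches on either strand to ACGTG, the core bound by HIF, and to GCATGCGC, part of the site of NRF1, a factor known for its sites at respiratory genes.
Cycs: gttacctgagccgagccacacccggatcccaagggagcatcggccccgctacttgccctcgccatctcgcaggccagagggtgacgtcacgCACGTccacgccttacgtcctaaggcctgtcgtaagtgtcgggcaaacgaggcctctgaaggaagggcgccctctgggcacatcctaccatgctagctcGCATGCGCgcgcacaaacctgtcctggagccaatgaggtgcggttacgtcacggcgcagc
Cox5a: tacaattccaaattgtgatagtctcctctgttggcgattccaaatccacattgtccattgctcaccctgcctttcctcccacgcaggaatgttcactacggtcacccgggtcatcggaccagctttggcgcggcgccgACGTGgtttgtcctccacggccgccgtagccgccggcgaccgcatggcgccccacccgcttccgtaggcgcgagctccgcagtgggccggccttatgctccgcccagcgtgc
Ndufa4: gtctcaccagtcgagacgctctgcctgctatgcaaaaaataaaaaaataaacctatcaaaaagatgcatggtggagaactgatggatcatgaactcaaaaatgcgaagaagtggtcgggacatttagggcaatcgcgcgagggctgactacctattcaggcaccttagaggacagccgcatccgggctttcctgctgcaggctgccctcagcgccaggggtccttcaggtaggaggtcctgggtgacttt
Of the 84 subunit genes, 70 were matched to such a promoter. ACGTG was in 16 of them (22.9%), against 18.5% of 27025 genes with a promoter in the table. The full palindromic NRF1 site was in 4 (5.71%), against 0.877% of all genes, and its part GCATGCGC, which lies within it and was added after the counts of the whole site were seen, in 9 (12.9%), against 2.56%. The letters CCGGAAG, bound by ETS factors such as GABP, were in 12 (17.1%), against 7.83%. The windows of Cycs and Cox5a hold 1 ACGTG each, and that of Cycs 1 GCATGCGC; that of Ndufa4 holds none of the motifs searched. A match is a stretch of letters and not a measured binding site.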

How the data were processed

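Per the labels' protocols, RNA was extracted with Trizol and poly-A libraries were made with the NEBNext Ultra kit. The deposited file holds raw read counts per Ensembl gene. The submitters' processing notes name bcl2fastq 2.17, Trimmomatic, STAR, featureCounts, DESeq2 and the build GRCm38; their settings, the annotation used for counting, and the treatment of strand and of reads with several matches are not named there. Totals ran from 43837809 to 107840223 counts per library, and their counting error is small beside the spread between libraries for all but the sparsely counted genes.

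Of 49315 identifiers, 48970 were paired with a GENCODE M21 symbol. Counts were fitted with edgeR 4.0.16 (R 4.3.3, limma 3.58.1): TMM scaling, filterByExpr, which kept 18211 genes, a quasi-likelihood test with group as the only term over all 9 libraries, two-sided, and Benjamini-Hochberg adjustment over all genes tested. A gene passed at an adjusted p under 0.05. Values after ± are SE. The procedure was tested on simulated counts for R26 hypoxia against R26 normoxia. Of true log2 changes of 1 and -1, it recovered 25 of 50 and 26 of 48. Of 0.5 and -0.5, it recovered 12 of 50 and 21 of 48, and there were 6 false calls. A gene that did not pass is therefore not shown to be unchanged. Alternatives were RLE size factors, no filter, depth class as a term, the 6 shallower libraries, the 2 groups compared alone, a replicate block, leaving out each library and DESeq2 1.42.0. Correlations of same-numbered libraries' deviations from their group means were 0.48, 0.53 and 0.855 between R26 hypoxia and R26 normoxia. All were above 0.1, and these numbers were taken as pairs for the block. Library 3 is the deeper one in both R26 groups, and shared depth alone can give such correlations. They therefore cannot show that the numbers mark pairs. R26 hypoxia 1, however, correlated better with an R26 normoxia library of another number. The pairing comes from the data and not from a statement in the labels. Replicates of a group differed beyond counting error (chi-square per degree of freedom from 6.18 to 63), so each was counted as 1 sample. CPM per kilobase divides by the gene's median coding transcript length.

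The genes named were the core subunits of complex I, the genes of complex II, Uqcrc1, Uqcrc2, Uqcrfs1, Cyc1, Cycs, Ndufa4, the Cox6a, Cox6b, Cox7a, Cox7b and Cox8 isoforms, Atp5a1, Atp5b, Atp5k, Atpif1 and the Atp5g genes, and in each comparison the 2 highest of the genes that passed as higher and the 2 lowest of those that passed as lower in each complex, where the average log2 CPM was 0 or above, and likewise 1 Ndufaf gene each way. Lrpprc, Surf1, the PGC-1 genes, Ndufb5, the other Ndufaf genes, Atp5c1, Atp5d, Atp5f1 and the genes set beside promoters or shared words were chosen after their values were seen. A gene that the rule names is not reported here. The members and lists were chosen with earlier results of these data known.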

Additional observations from a re-analysis of the deposited data

How the results depend on the processing

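No direction of a named gene's fold change that passed was turned by any of the 16 alternatives per comparison. For counts, higher and lower were compared separately, so a turn of direction was not scored. For R26 hypoxia against R26 normoxia, the 8 lower subunit genes became 36 with depth class as a term, 28 in the 6 shallower libraries, 43 with the replicate block, 5 with no filter on low counts, 4 with the 2 groups alone, and 2 to 8 when 1 library was left out; the 0 higher genes became 1 with the depth term, 1 in the shallower libraries, 2 with the block and 0 to 1 when 1 library was left out. For HIF1a-ko hypoxia against R26 hypoxia, the 37 higher genes became 73 with the depth term and 69 in the shallower libraries; the 1 lower gene became 2 with the depth term, 4 in the shallower libraries, 0 with the block and 0 to 2 when 1 library was left out. For HIF1a-ko hypoxia against R26 normoxia, the 16 higher genes became 61 with the depth term, 55 in the shallower libraries, 25 with the 2 groups alone and 12 to 28 when 1 library was left out; the 0 lower genes became 2, 1, 1 and 0 to 1 under the same settings. The cause of these shifts was not tested. Shares over all genes were counted only for the settings given with one above. In the comparisons with HIF1a-ko hypoxia the correlations of same-numbered libraries ran from -0.667 to 0.587. The deeper library there is number 1 in HIF1a-ko hypoxia and number 3 in the R26 groups, so these values cannot tell whether the numbers mark pairs. The block gave 27 higher genes against R26 hypoxia and 21 against R26 normoxia. RLE size factors and DESeq2 left these counts within 1.5 times, and RLE moved the median of all genes by at most 0.018 against TMM. Of the named calls of the group-only fit, 21 of 31 held whichever library was left out for HIF1a-ko hypoxia against R26 hypoxia, 9 of 13 for HIF1a-ko hypoxia against R26 normoxia and 2 of 7 for R26 hypoxia against R26 normoxia. Cox8b had 0 to 4 reads in a library and Cox7b2 and Cox8c 0 reads, so that no difference in them was detectable at this depth.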
